A study of Mus musculus with 8 samples.

Results

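The 7 genes that encode the subunits of AMP-activated protein kinase (AMPK) and Stk11, the gene of its upstream kinase LKB1, were followed through single-nucleus RNA sequencing of mouse gastrocnemius, a calf muscle. They were taken by name, and all 8 were found among the 21207 gene symbols shared by the 8 count matrices. The mice were C57BL/6, labelled WT. The 4 groups were Old (20 months), Young (3 months), Running and Sedentary, both given as 11 months at the start, of which Running then had 2 months of treadmill training. Each group had 2 libraries, replicate 1 made with 10x Genomics droplets (the 10x set) and replicate 2 with another droplet system (the second set). The number of animals behind a library is not given in the sources used here, so the spread between libraries may be partly technical.

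AMPK is a trimer of a catalytic alpha subunit, a beta subunit that scaffolds the complex and binds glycogen, and a gamma subunit that binds AMP, ADP and ATP. When AMP or ADP is bound, LKB1 phosphorylates the alpha subunit, and the active kinase slows ATP-consuming synthesis and favours glucose uptake and fatty acid oxidation. Each subunit has several genes. Prkaa2 (alpha-2), Prkab2 (beta-2) and Prkag3 (gamma-3) are known as the muscle forms, and gamma-3 as a form of fast glycolytic fibres.

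Counts are of UMIs, tags that let each captured RNA molecule be counted once, and levels are in CPM, the usual scaling of a gene's UMIs to a common library total, over the nuclei summed. The libraries as deposited held between 4839878 and 44454427 UMIs, and between 4228 and 12991 nuclei each were retained after filtering. In the Old library of the second set 85.1% of nuclei fell in clusters that no marker list named, against between 4.49% and 25.5% in the other 7 libraries, and only 181 of its nuclei could be called Type IIb. Comparisons of Old with Young are therefore also given without it. Pairs of 10x libraries shared between 30 and 46 cell barcodes, and the second set names its cells by running numbers, so shared barcodes could not be counted there.

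The promoter windows of the 3 muscle forms are shown because the fibre type differences below run through these genes. The sequences are RefSeq's on GRCm38.p6, from 250 bases before to 50 bases after the annotated start, printed 5′ to 3′ on the gene's strand. Capitals mark CAGCTG, the E-box of myogenic factors, which reads the same on both strands.
Prkag3, chr1:74748906-74749205, minus strand: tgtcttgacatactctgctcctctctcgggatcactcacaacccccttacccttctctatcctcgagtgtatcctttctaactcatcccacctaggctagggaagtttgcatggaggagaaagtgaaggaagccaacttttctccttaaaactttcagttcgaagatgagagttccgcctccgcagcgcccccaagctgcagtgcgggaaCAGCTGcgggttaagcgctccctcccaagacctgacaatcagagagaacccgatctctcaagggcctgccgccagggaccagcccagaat
Prkab2, chr3:97657962-97658261, plus strand: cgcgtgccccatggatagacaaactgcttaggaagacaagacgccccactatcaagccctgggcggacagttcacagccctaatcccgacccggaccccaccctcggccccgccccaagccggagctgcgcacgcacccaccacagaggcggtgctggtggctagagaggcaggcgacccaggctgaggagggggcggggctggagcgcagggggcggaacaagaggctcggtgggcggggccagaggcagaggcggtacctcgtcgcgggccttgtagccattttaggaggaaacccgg
Prkaa2, chr4:105109849-105110148, minus strand: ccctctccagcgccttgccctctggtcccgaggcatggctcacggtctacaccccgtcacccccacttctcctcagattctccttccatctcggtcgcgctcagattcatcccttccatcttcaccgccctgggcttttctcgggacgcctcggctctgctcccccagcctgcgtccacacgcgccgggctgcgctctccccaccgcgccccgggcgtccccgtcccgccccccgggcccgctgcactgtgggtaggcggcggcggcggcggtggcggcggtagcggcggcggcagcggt
The Prkag3 window held 1 CAGCTG and was 54.0% G and C with 11 CpG pairs, while the windows of Prkab2 (68%, 23 CpG pairs) and Prkaa2 (72.7%, 35 CpG pairs) held none. In GENCODE, another annotation, Prkag3 starts at 74749221, so by that annotation its window lies inside the gene. CAGCTG was present in 16.3% of the 32817 promoter windows of this length. Of the other motifs searched on both strands, the MEF3 site TCAGGTT (4.07% of windows) was found in the Prkab1 window alone among the members, and the nuclear receptor half-site AGGTCA (16.3%) in 1 of the 3 Prkag2 windows. A match is a description of the letters and shows no binding.

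Among the alpha genes, Prkaa2 was the more abundant in every library. In the 10x set Prkaa2 held 438 CPM in Old, 624 CPM in Young, 451 CPM in Running and 593 CPM in Sedentary, and the second set gave 190, 359, 361 and 344 CPM in the same order. Prkaa1, the alpha-1 gene of most other tissues, held between 24.1 and 33.5 CPM (10x) and between 17.4 and 25.02 CPM (second set). The Old library of the second set was the lowest of the 8 for Prkaa2 and the highest of its set for Prkaa1.

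Of the beta genes, Prkab2 held 103, 133, 126 and 96.3 CPM in Old, Young, Running and Sedentary of the 10x set and 68.01, 156, 208 and 232 CPM in the second. Prkab1, the beta-1 gene, was the scarcest member in every library, at between 4.62 and 14.8 CPM.

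Among the gamma genes Prkag3 led in all 8 libraries. It held 420, 299, 614 and 433 CPM in Old, Young, Running and Sedentary of the 10x set and 395, 433, 1725 and 1206 CPM in the second, where the Running and Sedentary libraries stood above all others. Prkag1, the widely used gamma-1 gene, ranged from 32.9 to 57.0 CPM. Prkag2, the gamma-2 gene known from the heart, ranged from 48.7 to 75.1 CPM in the 10x set, but in the second set from 18.9 to 20.2 CPM in 3 libraries and 110 CPM in Old. Stk11 ranged from 23.2 to 41.5 CPM.

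Levels of different genes were compared per kilobase of gene span, since nuclear RNA holds introns. Prkag3 reads came from a span of only 10.3 kb and reached a 10x mean of 42.9 CPM per kb, the highest of the 8. Prkab2 followed at 7.33 and Prkaa2 at 6.58, and Prkag2, over 238 kb, was the lowest at 0.266 CPM per kb. Per kilobase of exon Prkag3 (120), Prkaa2 (66.1) and Prkab2 (22.5) were also the first 3 of the 8 in the 10x set. On that scale Prkag2 (9.76) stood above Stk11 (7.22), Prkaa1 (6.57) and Prkab1 (2.23), so its last place held per span only.

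**Figure D1:**
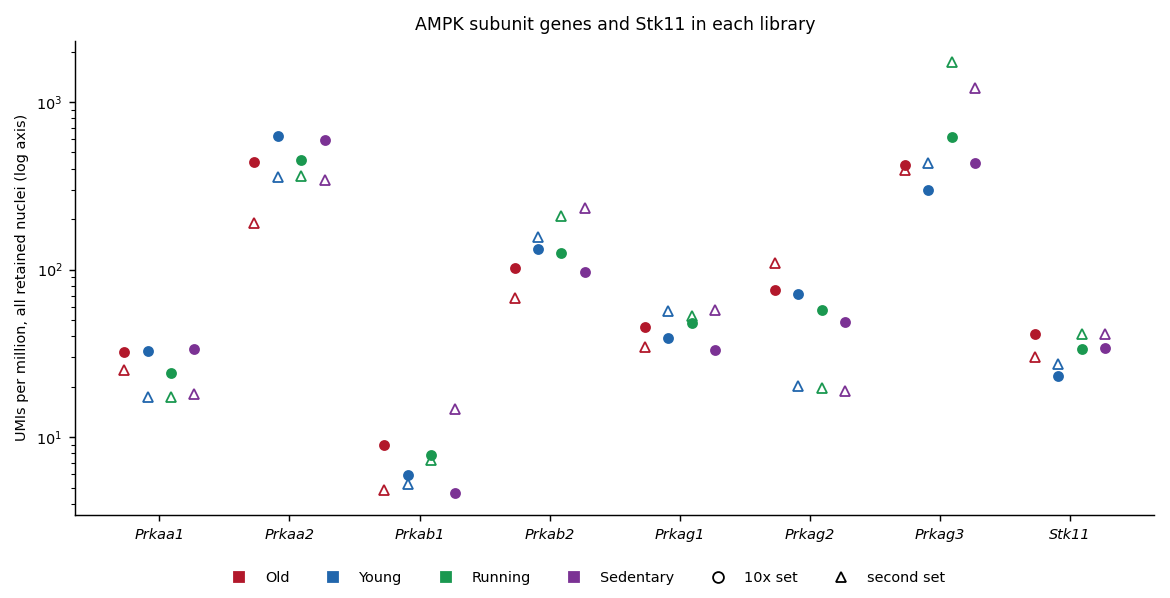
CPM over all retained nuclei (log axis) for each gene, with 1 point a library, coloured by group, circles for the 10x set and triangles for the second. Prkaa2 and Prkag3 lie highest and Prkab1 lowest, and the sets lie apart for Prkag2, with the Old library of the second set (110) away from the other 3 of its set.

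Nuclei were then divided into classes by clustering without the 8 genes and the pathway genes named below, and a class name means that its nuclei were like that class by its markers. Levels here are CPM in the 10x set, as mean ± SD over libraries with at least 20 nuclei of the class, and are a description with no test. The muscle forms were highest in myonuclei, the nuclei of the fibres. Prkag3 was highest in Type IIb nuclei at 752 ± 217 (n = 4), followed by myotendinous junction nuclei at 537 ± 175 (n = 4), whose ranges overlapped. Neuromuscular junction nuclei (205 ± 34.6, n = 4), Type IIa/IIx nuclei (166 ± 55.2, n = 4) and slow nuclei (97.4 ± 15.97, n = 2) were lower, and each lay below the lowest Type IIb library. The second set also held a class of 236 Runx1 myonuclei, named for that transcription factor gene, with Prkag3 at 1157, 921, 3102 and 1499 CPM in Old, Young, Running and Sedentary, against 1077, 758, 2104 and 1504 CPM in its Type IIb class. The Runx1 class held 35, 51, 26 and 124 nuclei in these libraries. Prkag3 was thus higher in Runx1 than in Type IIb nuclei in Old, Young and Running, and about level in Sedentary.

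Prkaa2 was spread more evenly over the fibre. It held 890 ± 300 CPM in neuromuscular junction, 710 ± 130 in Type IIb, 612 ± 117 in Type IIa/IIx and 537 ± 101 in myotendinous junction nuclei (n = 4 each), and neighbours in this order overlapped. Slow nuclei held 424 ± 54.4 (n = 2). Prkab2 followed the order Type IIb (156 ± 19.6), myotendinous junction (120 ± 41.4), Type IIa/IIx (100.2 ± 25.2) and, outside the fibre, muscle stem cells (97.5 ± 14.02), with overlap between neighbours. Neuromuscular junction nuclei (mean 77.6) and the slow libraries (85.4 and 87.7) lay below that stem cell mean.

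In the 174 neuromuscular junction nuclei, all of 1 cluster, the 3 muscle forms were set against Type IIb nuclei of the same library. Prkaa2 stood at a median of 123% of the Type IIb level (range 95.1 to 156%), Prkab2 at 52.7% (23.1 to 63.8%) and Prkag3 at 27.3% (23.8 to 34.9%). Myh4, the IIb myosin, was at 60.1% and Ttn, the titin gene of all fibres, at 71.8% there. Prkaa1 was at 419% (278 to 616%), on 53 UMIs. A larger cluster of 380 nuclei was left unnamed because it held both junction and Type IIb markers. Their mean log2 levels above the median cluster were 3.23 and 1.86. Chrne, an acetylcholine receptor subunit gene of the junction, stood at between 195 and 398 CPM in this cluster. There Prkag3 was at 907, 476, 992 and 795 CPM in Old, Young, Running and Sedentary, close to the Type IIb level, so the low Prkag3 holds for the named cluster and not for every nucleus with junction markers. In the second set the same class held 499 ± 264 CPM of Prkag3, 397 ± 96.4 of Prkaa2 and 27.02 ± 13.5 of Prkaa1 (n = 4), the last on 7 UMIs.

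Prkag2 had the opposite distribution to Prkag3. It was highest in lymphatic endothelial nuclei, at 1053, 1141 and 908 CPM in Old, Young and Running (the Sedentary library held only 17 such nuclei and 8 Prkag2 UMIs, at 263 CPM). The next class was far below these 3 libraries. Adipocytes held 399 ± 61.4 CPM, macrophages 322 ± 76.7, muscle stem cells 175 ± 7.95 and fibro-adipogenic progenitors 140 ± 22.3 (n = 4 each). Type IIb nuclei held 8.71 ± 2.66 CPM (n = 4). After each nucleus was thinned to 500 UMIs, 38.7% of lymphatic endothelial nuclei, 16.4% of adipocytes and 0.492% of Type IIb nuclei had a Prkag2 UMI. Lymphatic nuclei came only from the 10x set, and in the second set adipocytes formed a class of 20 or more nuclei in 1 library, at 367 CPM of Prkag2.

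The widely used forms were flatter than Prkag2 and Prkag3. Prkag1 ranged from 27.6 ± 16.4 CPM in myotendinous junction nuclei and 31.3 ± 5.14 in Type IIb nuclei to 63.0 ± 19.2 in macrophages and 62.3 ± 8.09 in fibro-adipogenic progenitors (n = 4 each), with 136 ± 39.7 in T cells (n = 3). Prkaa1 was at 19.2 ± 3.72 in Type IIb nuclei, 85.5 ± 44.2 in neuromuscular junction nuclei and 83.4 ± 19.3 in adipocytes. Stk11 was at 26.6 ± 6.71 in Type IIb nuclei and highest in adipocytes at 80.8 ± 11.1, above every Type IIb library. Prkab1 stayed at or under 15.9 ± 9.61 CPM, its endothelial mean, in every class that all 4 libraries held.

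UMIs of the muscle forms also appeared in classes outside the fibre, where free RNA from fibres can be captured. Prkag3 stood at 6.76 to 8.35% of its Type IIb level in fibro-adipogenic progenitors, where Ttn stood at 6.40 to 9.77%, and at 12.7 to 24.5% in endothelial nuclei, where Ttn stood at 17.3 to 34.8%. These Prkag3 levels were close to those of a fibre gene, and how much of them was free RNA was not tested. In slow nuclei Ttn was at 97.9 to 102% of its Type IIb level while Prkag3 was at 10.8 to 13.1% and Myh4 at 10.5 to 12.3%, so Prkag3 and the IIb myosin were lower by a similar factor there. For Prkaa2 the share in fibro-adipogenic progenitors was 10.9 to 20.7%, above that of Ttn. Prkab2 stood at 26.6 to 40.6% in these progenitors, also above Ttn. In muscle stem cells Prkab2 stood at 55.2 to 72.9% and Ttn at 16.96 to 25.16%. In endothelial nuclei (26.8 to 49.6%) and lymphatic endothelial nuclei (7.80 to 17.8%) the range of Prkab2 overlapped that of Ttn. The source of the Prkab2 UMIs outside the fibre was not tested. After thinning, 29.6% of Type IIb nuclei and 2.17% of fibro-adipogenic progenitors had a Prkag3 UMI.

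**Figure D2:**
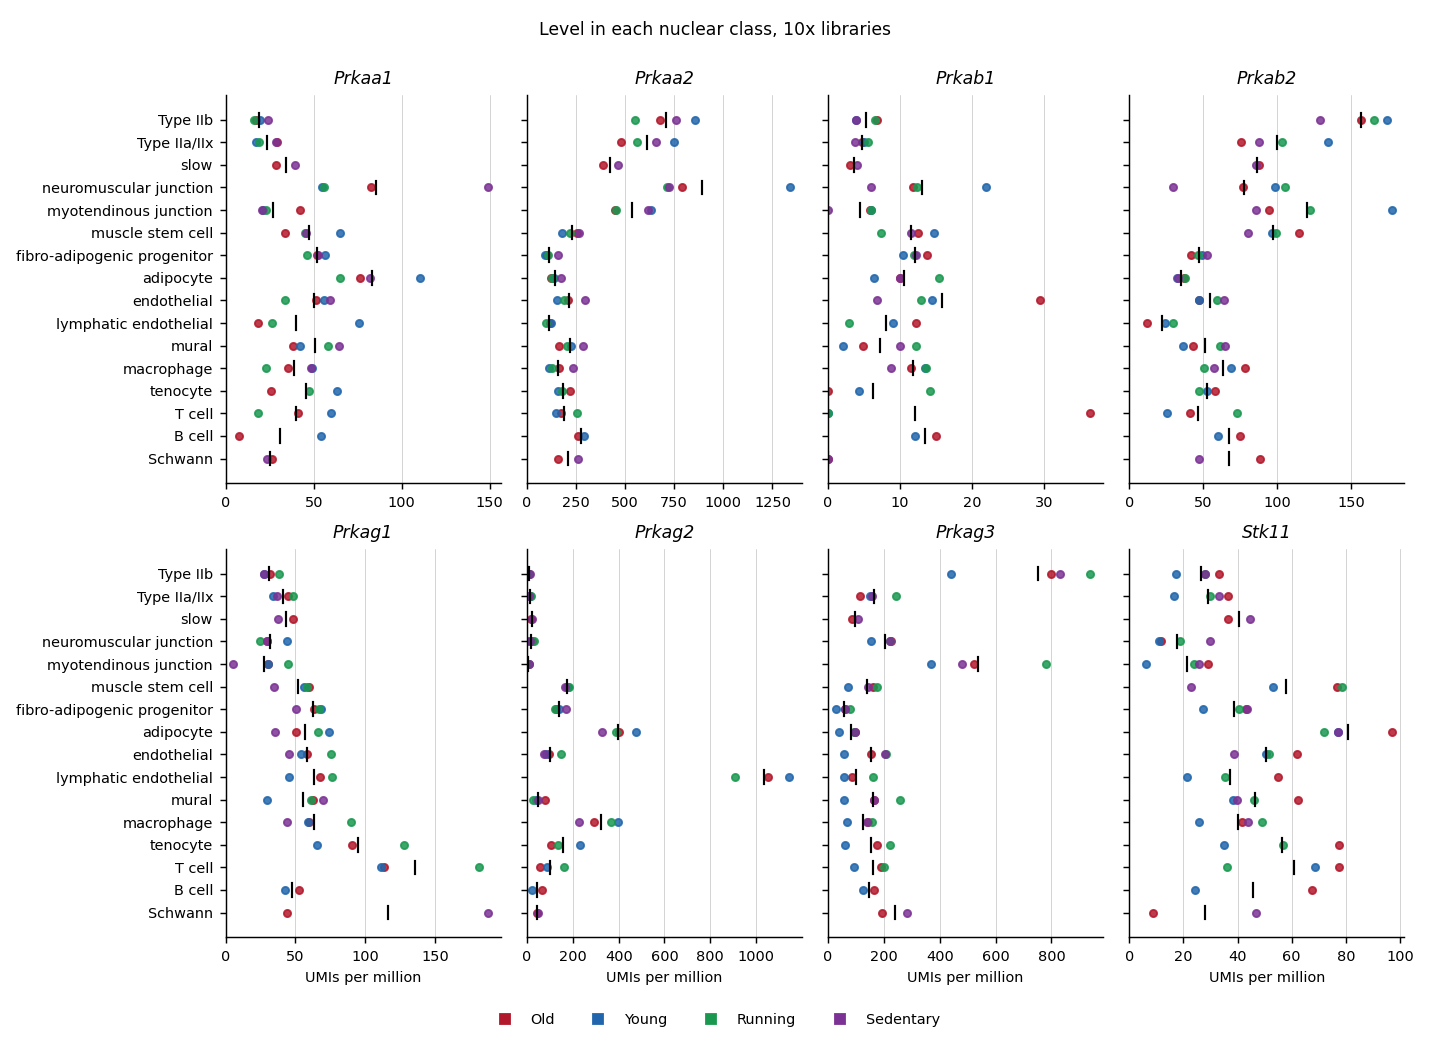
Each panel gives 1 gene, with CPM on the x axis (linear, from 0, scaled per gene) and nuclear classes on the y axis; points are 10x libraries with at least 20 nuclei of the class, coloured by group, and the black bar is their mean. Prkag3 is highest in Type IIb nuclei and Prkag2 in lymphatic endothelial nuclei, where its 3 libraries lie between 908 and 1141.

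For likeness, each gene's mean profile over the 10 classes held by all 4 libraries of the 10x set was correlated with 9887 other genes (Pearson r of log2(CPM + 1), a description across classes that share libraries). Prkag3 was most like Ppp1r3c (r = 0.975), which encodes a glycogen-targeting phosphatase subunit, then Mybpc2 (0.964), the fast myosin-binding protein C, and Tspan8 (0.962). Prkaa2 was most like Clcn1 (0.986), the muscle chloride channel, Dtna (0.985) and Capn3 (0.985), a muscle calpain. Prkab2 was most like Pgk1 (0.967), a glycolytic kinase, and Prkag2 like Zfc3h1 (0.984). The first genes for the others were Utrn for Prkaa1 (0.948), Tubgcp2 for Prkab1 (0.952), Wrn for Prkag1 (0.977) and Zscan26 for Stk11 (0.973).

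Isoform use was then compared between fibre types. A myonucleus was assigned by its myosin heavy chain UMIs (at least 5, of which at least 0.6 from 1 gene): Myh4 for IIb, Myh1 for IIx, Myh2 for IIa and Myh7 for slow. This gave between 181 and 6972 IIb nuclei a library, and IIx, IIa and slow sums were used where a library had at least 20 nuclei, which was so in 7, 6 and 3 libraries. In the second set Myh4 still made up between 24.6% and 31.6% of the myosin UMIs of IIx, IIa and slow nuclei in libraries with at least 20, against between 2.98% and 9.42% in the 10x set, so IIb RNA was more mixed into the other types there. Sums per fibre type and library were tested with edgeR's quasi-likelihood test with each library as a block.

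Among the 8 genes, Prkag3 differed most between fibre types. In IIb nuclei of the 10x set it held 758 CPM in Old, 427 CPM in Young, 884 CPM in Running and 773 CPM in Sedentary, and the second set gave 757, 618, 1882 and 1377 CPM. In IIx nuclei the values were 88.9, 83.7, 173 and 146 CPM in the 10x set, and 184, 159 and 236 CPM in Old, Young and Sedentary of the second, the first of these on 4 UMIs. IIa nuclei held 67.4, 49.6, 89.7 and 83.1 CPM in the 10x set and 108 and 180 CPM in Young and Sedentary of the second. These were far lower in every library. Slow nuclei held 57.5 CPM in Old and 70.8 in Sedentary of the 10x set and 138 in Young of the second, on 34, 61 and 7 UMIs. The IIb values did not overlap those of any other type.

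Relative to IIb, Prkag3 was lower by a log2 fold change of -2.59 in IIx (SE 0.13, adjusted p = 1.06e-15, lower in 7 of 7 libraries), -3.27 in IIa (SE 0.15, adjusted p = 1.21e-17, 6 of 6) and -3.56 in slow nuclei (SE 0.22, adjusted p = 2.48e-14, 3 of 3). It was called in all 16 alternatives of each comparison, over which the log2 fold change ran from -2.79 to -1.85 in IIx, from -3.63 to -2.77 in IIa and from -4.05 to -2.46 in slow nuclei. In the second set alone the values were -2.34, -2.77 and -2.46.

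In IIx against IIb, 3 of the 8 genes were called, 2 lower and 1 higher, where 20% of the 11156 genes tested were called. Prkab2 fell by 0.80 on the log2 scale (SE 0.14, adjusted p = 2.51e-05), from between 90.2 and 245 CPM in IIb to between 0 (Old of the second set, 21 nuclei) and 221 CPM in IIx, lower in 7 of 7 libraries. Prkag2 was higher by 0.74 (SE 0.24, adjusted p = 0.0254). Its IIx sums held 19, 15, 63 and 23 UMIs in Old, Young, Running and Sedentary of the 10x set. Old, Young and Sedentary of the second set held 0, 9 and 1. Prkag2 stayed called in 10 of 15 alternatives, with adjusted p from 0.00433 to 0.658. Without the requirement that a nucleus lie in a cluster named as myonuclei, its log2 fold change was 0.19. Classes outside the fibre held more Prkag2, and the part of free RNA in its IIx level was not tested. The other 5 genes, with log2 fold changes between -0.26 (Prkaa2) and 0.36 (Prkag1), did not pass.

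In IIa against IIb, 5 of the 8 were called, 4 lower and 1 higher, where 32.5% of all genes were called. Leaving out any 1 library of the 10x set left 3 called. Prkab2 fell by 1.33 (SE 0.15, adjusted p = 4.06e-09, lower in 6 of 6 libraries), with 10x values of 53.9, 72.1, 55.2 and 69.1 CPM in IIa against 154, 173, 159 and 130 CPM in IIb. Prkaa2 fell by 0.54 (SE 0.12, adjusted p = 0.000366), lower in 6 of 6 libraries, with 399, 671, 451 and 564 CPM in IIa against 664, 851, 553 and 776 CPM in IIb of the 10x set. Prkab1 fell by 1.01 (SE 0.39, adjusted p = 0.0443), but was called in only 2 of 14 alternatives. Its IIa sums held 4, 0, 5 and 7 UMIs in Old, Young, Running and Sedentary of the 10x set. Young and Sedentary of the second set held 1 UMI each. Prkag1 was higher by 0.46 (SE 0.17, adjusted p = 0.0342), in 6 of 6 libraries, at 48.2, 63.1, 61.0 and 38.7 CPM in IIa against 32.3, 27.4, 38.7 and 26.2 in IIb of the 10x set, and was called in 8 of 16 alternatives.

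In slow against IIb, 4 of the 8 were called, 3 lower and 1 higher, where 25.4% of all genes were called. Slow nuclei came from 3 libraries only. Prkaa2 fell by 0.94 (SE 0.16, adjusted p = 3.26e-05) and Prkab2 by 1.03 (SE 0.21, adjusted p = 0.000326), each lower in 3 of 3 libraries. Prkag2 was higher by 1.15 (SE 0.40, adjusted p = 0.0309), in 3 of 3 libraries, on 11, 17 and 2 UMIs, and was called in 11 of 15 alternatives. Prkaa1 stood at 0.71 (SE 0.28, adjusted p = 0.0645; called in 6 of 15 alternatives) and Stk11 at 0.15 (SE 0.26, adjusted p = 0.736). Stk11 was not called in any fibre type comparison.

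The median log2 fold change of the 8 genes was -0.0028 in IIx, -0.13 in IIa and -0.08 in slow nuclei, beside -0.10, -0.09 and -0.12 over all genes tested.

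**Figure D3:**
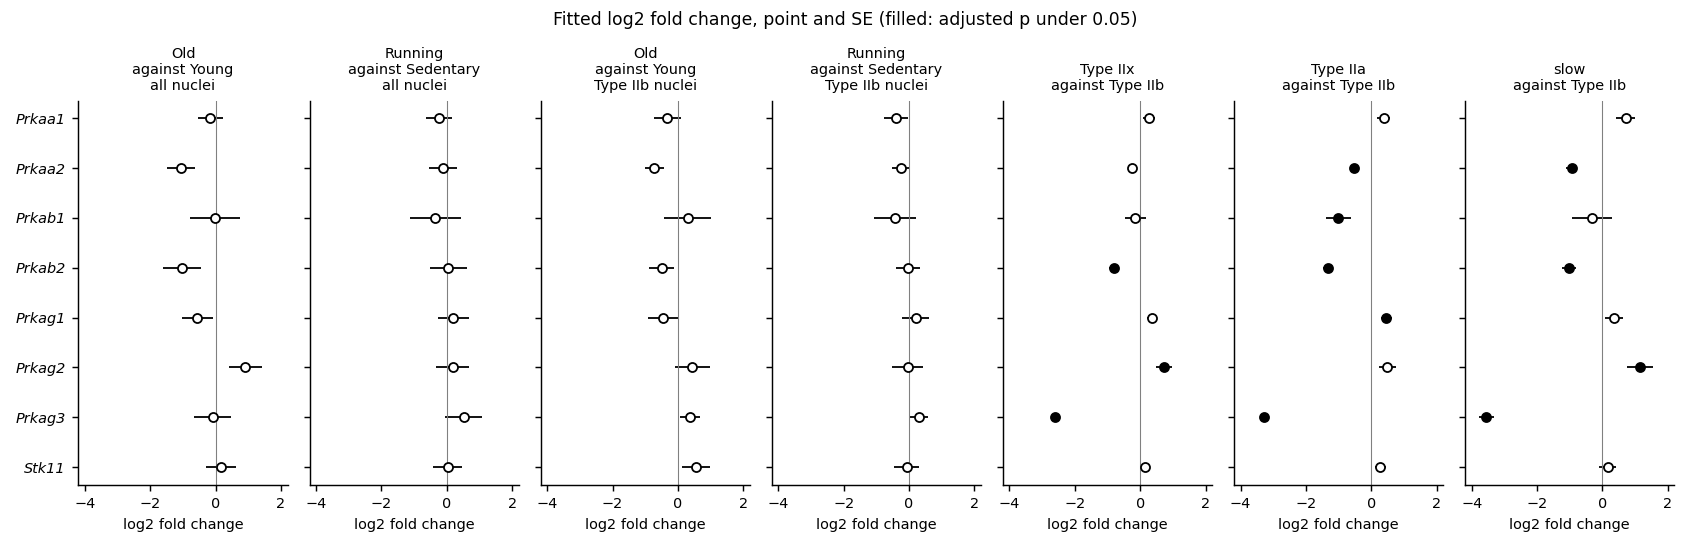
Fitted log2 fold change (x axis) of each gene in each comparison, as point and SE, filled where the adjusted p was under 0.05. No point is filled in the 4 comparisons of conditions, and Prkag3 lies at -2.59, -3.27 and -3.56 in the 3 comparisons of fibre types.

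Expressed as isoform shares, Prkag3 made up most gamma UMIs of IIb nuclei, between 90.6% and 96.5% over 8 libraries. In IIx nuclei it made up 60.4, 61.5, 70.5 and 76.2% in Old, Young, Running and Sedentary of the 10x set and 50.0 and 78.9% in Young and Sedentary of the second. The difference from IIb was -27.7 ± 9.30 percentage points (SD, n = 6 libraries, lower in 6 of 6, exact sign-flip permutation test, two-sided p = 0.03125, the smallest that 6 libraries allow, adjusted p = 0.0938 over 12 tests). In IIa nuclei its share was 52.1, 39.3, 52.7 and 63.0% in the 10x set and 65.1 and 63.6% in the second, a difference of -38.1 ± 10.0 points (n = 6, lower in 6 of 6, exact p = 0.03125, adjusted p = 0.0938). Slow nuclei of Old and Sedentary held 44.2% and 54.0%. None of the 12 share tests passed an adjusted p of 0.05.

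The mean share of Prkag2 was 1.33% in IIb, 9.61% in IIx and 8.81% in IIa nuclei, higher in 6 of 6 libraries each time (exact p = 0.03125, adjusted p = 0.0938). The remainder was Prkag1, at up to 50.0% of gamma UMIs in IIa nuclei of Young in the 10x set. A share also rises when another gamma gene falls, so the Prkag2 shares alone do not show a higher level. By CPM, Prkag2 was higher than in IIb in 5 of 7 libraries in IIx and 5 of 6 in IIa. It was not called in IIa. In Young of the second set Prkag2 held 5.26 CPM in IIa and 17.03 CPM in IIb nuclei, on 2 and 73 UMIs. Its shares there were 3.17% and 2.49%. The alpha and beta genes kept their order: Prkaa2 made up a mean of 96.8% of alpha UMIs in IIb, 96.5% in IIx and 94.8% in IIa nuclei, and in slow nuclei 91.5, 90.0 and 93.3% in the 3 libraries, a difference of -5.25 ± 2.14 points (n = 3, exact p = 0.25, the smallest possible). Prkab2 made up 96.2% of beta UMIs in IIb, 94.0% in IIx and 95.6% in IIa nuclei, differences of -2.19 ± 3.89 and -0.60 ± 2.76 points (SD, n = 6) that lie within their spread.

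**Figure D4:**
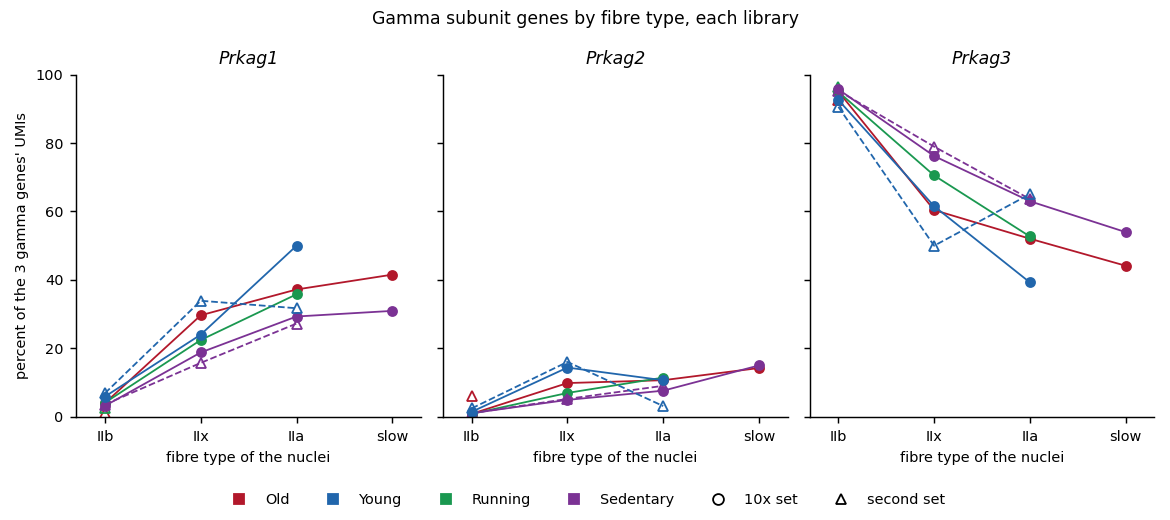
Percent of the UMIs of the 3 gamma genes (y axis, 0 to 100) taken by each gene in nuclei of each fibre type; every line is a library, solid circles for the 10x set and open triangles for the second. Prkag3 starts between 90.6 and 96.5% in IIb nuclei and is lower in every other type, while Prkag1 and Prkag2 are higher.

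The difference between IIb and IIx nuclei was graded. In 10x nuclei of the Type IIb and Type IIa/IIx clusters with at least 5 UMIs of Myh4 and Myh1 and at most 20% of myosin UMIs from Myh2 and Myh7, Prkag3 was followed over the percent of Myh4 in Myh4 plus Myh1. In Old it held 76.3, 170, 202, 336, 778 and 768 CPM in the bins 0 to 20, 20 to 40, 40 to 60, 60 to 80, 80 to 95 and 95 to 100%. In Young the 6 values were 80.1, 120, 191, 250.2, 393 and 431 CPM. Running gave 145, 295, 469, 496, 914 and 888 CPM, and Sedentary 132, 217, 262, 434, 804 and 790 CPM. In all 4 libraries the level was higher in each bin than in the one before, up to 80 to 95%, and the last bin was close to it. The middle bins held between 21 and 150 nuclei a library. Prkaa2 was also higher in the last bin than in the first in all 4 libraries, by less: 524 and 677 CPM in Old, 736 and 854 CPM in Young, 534 and 561 CPM in Running, and 705 and 785 CPM in Sedentary. Its first 3 bins had no common order. The 60 to 80% bin was lower than the bin before it in Old (450 against 690 CPM) and Running (532 against 551 CPM), and higher in Young and Sedentary. After the 60 to 80% bin Prkaa2 was higher in each bin than in the one before. The last bin still lay below the 40 to 60% bin in Old and below the 20 to 40% bin (911 CPM) in Young. Doublets were not removed, and their part in the middle bins was not tested.

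**Figure D5:**
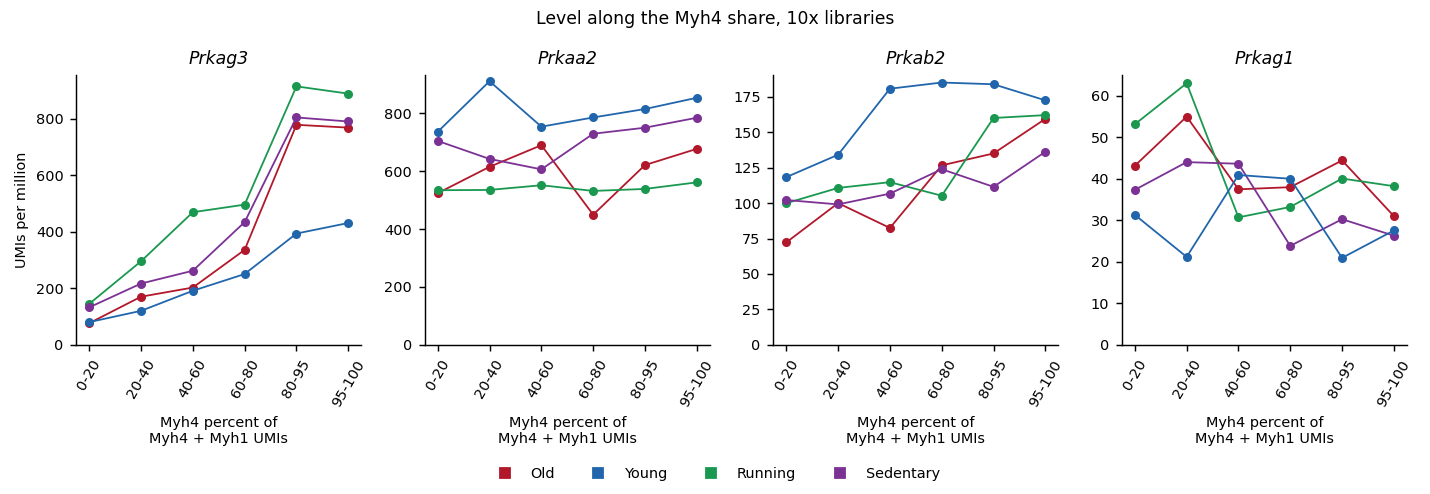
CPM (y axis, linear from 0, scaled per gene) in nuclei binned by the percent of Myh4 in Myh4 plus Myh1 UMIs (x axis), with 1 line for each 10x library. Prkag3 goes from between 76.3 and 145 in the lowest bin to between 431 and 888 in the highest. Prkaa2 stands at 524 in the lowest and 677 in the highest bin of Old, with 450 in its 60 to 80% bin.

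Old was compared with Young, and Running with Sedentary, in 1 fit of all 8 libraries with the library set as a term. In Old against Young over all nuclei, 0 of the 8 genes were called by edgeR, where 0% of the 20324 genes tested were called (557 at an unadjusted p under 0.05, and 0 by DESeq2). The SEs of the 8 genes were between 0.39 and 0.76 on the log2 scale, so differences of moderate size were not detectable. In simulated data the Old against Young fit over all nuclei called none of the changed genes, so larger differences could also be missed. Prkaa2 had the smallest p of the 8, with a log2 fold change of -1.07 (SE 0.43, unadjusted p = 0.0383, adjusted p = 0.693). Old was the lower in each set, with log2 differences of -0.51 (10x) and -0.92 (second). Without the Old library of the second set the fitted value was -0.62 (SE 0.32, adjusted p = 1). Over the 14 alternatives it ran from -1.73 to -0.62, with adjusted p from 0.0999629 to 1.

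Prkab2 was also lower in Old in both sets, at -0.37 and -1.19, with a fitted -1.03 (SE 0.57, adjusted p = 0.693), which was -0.33 without the Old library of the second set. Prkag2 was fitted at 0.91 (SE 0.52, adjusted p = 0.693), but the sets differed: Old held 75.1 CPM and Young 71.4 CPM with 10x, and 110 CPM and 20.2 CPM with the other system. Without the Old library of the second set its value was -0.0045. Prkag3 was at -0.09 (SE 0.57) and 0.58 without that library, and Stk11 at 0.16 (SE 0.45) and 0.67. The median of the 8 genes was -0.13, beside 0.19 over all genes. Over all nuclei, a change in class make-up and a change within a class cannot be told apart.

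Within Type IIb nuclei, Old against Young, again 0 of 8 were called, where 0% of 16448 genes were called (690 at an unadjusted p under 0.05, and 8 by DESeq2). Prkaa2 held 664 CPM in Old and 851 in Young of the 10x set and 241 and 394 in the second, a log2 fold change of -0.72 (SE 0.28, unadjusted p = 0.0267, adjusted p = 1). It was -0.46 (SE 0.30, adjusted p = 0.963) without the Old library of the second set and -1.18 (SE 0.39, adjusted p = 0.406) without that of the 10x set. The second-set value of Old rested on 48 UMIs. Prkag3 was higher in Old in both sets, 758 against 427 CPM and 757 against 618 CPM, with a fitted 0.38 (SE 0.30, adjusted p = 1), and 0.78 (SE 0.29, unadjusted p = 0.0251, adjusted p = 0.912) without the Old library of the second set. Stk11 was at 32.6 CPM in Old and 16.7 in Young of the 10x set, and at 15.03 and 18.7 in the second, where Old rested on 3 UMIs, with a fitted 0.55 (SE 0.42), which was 0.91 (SE 0.34, adjusted p = 0.912) without that library and -0.86 (SE 0.70, adjusted p = 0.61) without Old of the 10x set. Prkab1 had no UMI in the 181 Type IIb nuclei of Old in the second set.

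In Running against Sedentary over all nuclei, 0 of 8 were called, where 0% of 20324 genes were called (98 at an unadjusted p under 0.05, and 0 by DESeq2). The log2 difference of Prkag3, Running minus Sedentary, was 0.50 (10x) and 0.52 (second), with a fitted 0.52 (SE 0.57, adjusted p = 1). The other 7 genes were fitted between -0.36 (Prkab1, SE 0.78) and 0.19 (Prkag1, SE 0.48), and 5 of them (Prkaa2, Prkab1, Prkab2, Prkag1 and, with differences near 0, Stk11) had opposite signs in the 2 sets. Prkaa1 held 24.1 CPM in Running and 33.5 in Sedentary of the 10x set and 17.4 and 18.01 in the second. The median of the 8 was 0.03, beside -0.04 over all genes.

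Within Type IIb nuclei, Running against Sedentary, 0 of 8 were called, where 0% of 16448 genes were called (241 at an unadjusted p under 0.05, and 0 by DESeq2). Prkag3 held 884 CPM in Running and 773 in Sedentary of the 10x set and 1882 and 1377 in the second, a fitted 0.29 (SE 0.30, adjusted p = 1). Prkaa1 was fitted at -0.40 (SE 0.36) and Prkaa2 at -0.24 (SE 0.27). None of the 8 genes was called in any alternative of the 4 condition comparisons.

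The other genes of the pathway were read from a list of 42, of which 41 were named in all 8 files. In the fibre type comparisons 37 were tested. In IIx against IIb 6 were higher and 3 lower of 37, a share near the 20% called over all genes. All 6 that rose were among the 16 AMPK substrates or targets tested, and the other 10 of these were not called. Gys1, muscle glycogen synthase, rose by 0.61 (SE 0.11, adjusted p = 6.94e-05) and Ppargc1a, the coactivator of mitochondrial genes, by 0.71 (SE 0.13, adjusted p = 0.000114). Acacb, the carboxylase that controls fatty acid entry into mitochondria, rose by 0.48 (SE 0.11, adjusted p = 0.00173), and Pfkfb2, Mff and Tbc1d4 by 0.60, 0.39 and 0.41. Strada, the pseudokinase partner of LKB1, and the folliculin partners Fnip1 and Fnip2 fell, by 0.41, 0.38 and 0.58.

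In IIa against IIb 6 were higher and 8 lower of 37, near the 32.5% called over all genes. Of 16 substrates tested 6 rose, led by Tbc1d4 (1.35, SE 0.14, adjusted p = 1.25e-09), with Ppargc1a (0.98), Pfkfb2 (0.80), Acacb (0.77), Gys1 (0.72) and Acaca (0.59). Tbc1d1 was the 1 substrate that fell, by 1.26 (SE 0.18, adjusted p = 4.22e-07). Tbc1d1 and Tbc1d4 both encode Rab GTPase-activating proteins that hold back glucose transporter traffic. Of 9 AMPK-related kinases tested, Sik1, Sik2, Sik3 and Mark3 fell, by between 0.31 and 0.92, as did Fnip1, Fnip2 and Cab39l, an LKB1 scaffold.

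In slow against IIb 7 were higher and 4 lower of 37, near the 25.4% called over all genes. Tbc1d1 fell by 3.43 (SE 0.29, adjusted p = 1.71e-11) and Tbc1d4 rose by 1.61 (SE 0.18, adjusted p = 1.17e-08). The kinases Mark1 (3.91), Sik1 (1.93) and Nuak1 (1.72) rose, as did Sesn3 (1.32), Ulk1 (0.88), the autophagy kinase, and Acacb (0.77). Sik2 (-1.88), Ppargc1a (-0.60) and Cab39l (-0.56) were lower. Median log2 fold changes of the 37 genes were 0.02, 0.14 and 0.15 in IIx, IIa and slow nuclei, beside -0.10, -0.09 and -0.12 over all genes.

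None of the 41 pathway genes tested over all nuclei, or of the 39 tested in Type IIb nuclei, was called between conditions. The smallest p-values in Old against Young were those of Mff (-0.88, SE 0.44) and Strada (-0.80, SE 0.41) over all nuclei and of Acaca (0.93, SE 0.42) and Sik3 (-0.61, SE 0.28) in Type IIb nuclei. In Running against Sedentary they were those of Arfgef3 (-1.53, SE 0.99) and Cab39 (-0.51, SE 0.38) over all nuclei and of Cab39 (-0.66, SE 0.25) and Nuak1 (-0.96, SE 0.57) in Type IIb nuclei. Adjusted p was between 0.693 and 1 for these 8.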

How the data were processed

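The authors deposited filtered matrices of raw UMI counts per gene and nucleus, aligned to mm10, made with Cell Ranger 6.1.2 for the 10x set and with PISA for the other system. Whether intronic reads were counted is not given in the sources used here. The second set was assigned by its labels and file headers. The study's limits were applied to genes detected (200 to 6000, both exclusive) and to the mitochondrial share (below 6%), which kept 64803 of 65280 nuclei. Genes of mitochondrial transcripts (12) and ribosomal proteins (83) were dropped, and doublets were kept. Each set was clustered with scanpy 1.11.5 (2000 variable genes, 30 principal components, 20 neighbours, resolution 1.0), and clusters were named from marker lists after they had been seen.

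Counts were summed per library, class or fibre type and tested with edgeR 4.0.16 (quasi-likelihood, TMM, filterByExpr, Benjamini-Hochberg over all genes, threshold 0.05), an approach tested on simulated data, where median fold changes were close to those simulated, the IIx against IIb fit called nearly all changed genes and the Old against Young fit over all nuclei called none of them. DESeq2 1.42.0 was an alternative. The condition fit had 3 residual degrees of freedom, the fibre type fit 13. Isoform shares needed at least 10 UMIs of the family in a library. The titles put 1 library of each group in each library set, and this set was the block in the condition fit. SE is the fold change over the root of F. Gene spans came from GENCODE vM21 on GRCm38. The members and lists were chosen with earlier results of these data known. Named were the 8 members, pathway genes called in a comparison (otherwise the 2 with the smallest p), and the genes most like each member. Exact tests were two-sided.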

Additional observations from a re-analysis of the deposited data

How the results depend on the processing

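Prkag3 was called in all 16 alternatives of the 3 fibre type comparisons, and Prkab2 (3 comparisons) and Prkaa2 (IIa, slow) in 15 of 16, the exception being the second set alone, with adjusted p of 0.386, 0.0995 and 0.667 for Prkab2 and 0.8004 and 0.502 for Prkaa2. In that set 1 of the 8 genes was called in each comparison. In IIa against IIb, 3 were called without the cluster requirement and 3 with fibre types taken from clusters; leaving out 1 library gave 2 to 3 called in IIx, 3 to 5 in IIa and 3 to 5 in slow nuclei. No member was called between conditions in any alternative, and none of the share tests passed. Over all genes, condition fits on only the 4 libraries compared called 4 (Old against Young) and 81 (Running against Sedentary) over all nuclei, and 82 and 1 in Type IIb nuclei, against 0; fits without 1 library called 0 to 8 and 0 to 423 over all nuclei and 0 to 91 and 0 to 114 in Type IIb nuclei. The causes were not tested. The library set was the replicate block of the condition fits, and without it 0 of the 8 genes and 0 genes in all were called in the 4 comparisons.

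These log2 fold changes, none of them called, reversed. With only the 4 libraries, Running against Sedentary, Prkab1 was 0.0062 over all nuclei and Prkab2 0.011 in Type IIb nuclei (0.031 with fibre types from clusters). In Type IIb nuclei Prkag2 was 0.00039 without the library set term and 0.20 without the cluster requirement, where Prkab1, Old against Young, was -0.14 and Prkag2, IIa against IIb, -0.032. Prkab1 in IIx was 0.011 at a myosin share of 0.8. Share differences in IIx reversed for Prkaa2 to 0.20 points without the cluster requirement and 0.11 when thinned, and for Prkab2 to 1.02 when thinned.

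Leaving out 1 library reversed these values. In Old against Young, all nuclei the range was Prkab1 -1.22 to 0.65, Prkag1 -1.40 to 0.0093, Prkag2 -0.0045 to 1.58, Prkag3 -1.22 to 0.58, Stk11 -0.60 to 0.67. In Running against Sedentary, all nuclei the range was Prkaa2 -0.55 to 0.22, Prkab1 -1.30 to 1.11, Prkab2 -0.55 to 0.95, Prkag1 -0.27 to 0.77, Prkag2 -0.10 to 0.41, Prkag3 -0.093 to 1.23, Stk11 -0.25 to 0.36. In Old against Young, Type IIb nuclei the range was Prkag1 -2.58 to 0.031, Prkag2 -0.23 to 1.30, Prkag3 -0.24 to 0.78, Stk11 -0.86 to 0.91. In Running against Sedentary, Type IIb nuclei the range was Prkaa2 -0.63 to 0.14, Prkab1 -1.23 to 0.54, Prkab2 -0.53 to 0.61, Prkag1 -0.18 to 0.63, Prkag2 -0.34 to 0.31, Prkag3 -0.10 to 0.65, Stk11 -0.36 to 0.25. In Type IIx against Type IIb the range was Prkab1 -0.27 to 0.070. In slow against Type IIb the range was Prkab1 -1.10 to 0.30, Stk11 -0.10 to 0.37. For share differences in points, IIx against IIb, it was Prkaa2 -1.13 to 0.45. For share differences in points, IIa against IIb, it was Prkab2 -1.19 to 0.40.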
